A study of Homo sapiens with 18 samples.

Results

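Gene expression was compared between 2 human pancreatic cancer cell lines, SU8686 and Panc1005, of which the labels call the first resistant and the second sensitive to dasatinib. The members were chosen by cell line label alone: 3 arrays of SU8686 and 3 of Panc1005, or 6 of the 18 arrays in the series, each array being 1 sample. The labels name no drug treatment, time point or genotype for any array. Both are established lines grown from ductal adenocarcinoma of the pancreas, and each group stands for 1 line, not for a response. RNA was read on Illumina Human HT-12 v4 BeadChips, and these 6 arrays are the ones on which lines of opposite response share a slide. On that slide Panc1005 held positions A to C and SU8686 positions G to I, so that position on the slide and line cannot be told apart. The replicates are described as biological triplicates. With 1 line on each side, every p-value below measures the spread between arrays of these lines and does not test response to the drug.

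Dasatinib blocks the SRC family of tyrosine kinases, which relay signals from matrix adhesion and growth factor receptors, and also blocks ABL kinases, Ephrin receptors and the collagen receptors DDR1 and DDR2. Pancreatic cancer cells can also differ in innate immune tone. Interferons bind receptors that activate a transcription factor complex holding IRF9, which binds the interferon-stimulated response element and switches on a shared set of antiviral, antigen processing and guanylate-binding genes. Epithelial cells make defensins, calprotectin and complement proteins in the same setting of barrier defence.

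Replicate 2 of both lines stood apart and is therefore given on its own. Levels are log2 intensities after background correction and normalization, so that a difference of 1 is a doubling, and differences are SU8686 minus Panc1005. Across 11644 genes detected on at least 1 of the 6 arrays, replicates 1 and 3 correlated at r = 0.994 within each line. The replicate 2 array of SU8686 correlated at 0.846 to 0.847 with its own line, and its nearest array was replicate 2 of Panc1005 at 0.908. The 2 lines correlated at 0.971 to 0.973 in replicates 1 and 3. Each of these is a correlation over genes and not over independent samples. The difference between lines had an SD over genes of 0.54 in replicate 1, 0.53 in replicate 3 and 0.95 in replicate 2. Of 10 ductal markers 9 were measured, with all 9 detected on replicate 2 of SU8686 and 8 on each other array. In replicates 1 and 3, 3 of them passed higher in SU8686 and 1 lower (14.7% and 12% of all genes). The lower one was KRT18, by -0.70 (limma, adjusted p = 0.0115), but no ductal marker passed lower with replicate 1 of either line left out. Over the 6 arrays EPCAM lay between 13.60 and 14.25, KRT7 between 11.68 and 13.54 and CDH1 between 11.73 and 13.68. By contrast CDKN2A, a cell cycle inhibitor, was at 9.66 to 10.11 on replicates 1 and 3 of both lines but at 4.77 and 4.64, not detected, on the replicate 2 arrays. CDH2, a mesenchymal cadherin, ran the other way, with 8.03 and 11.23 in replicate 2 of SU8686 and Panc1005 and 4.71 to 4.85, not detected, elsewhere. The replicate 2 arrays of the 2 labels thus resembled each other in these genes and differed from the arrays that carry the same names. What this means for the labels of replicate 2 was not tested.

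Markers of other cell types were few. Of 10 leukocyte markers 4 were among the genes measured, and PTPRC, CD3D, CD3E, MS4A1, ITGAM and TYROBP were not. The summed log2 level of the 4 was 29.5 to 30.3 on replicates 1 and 3 of SU8686 and 30.1 to 30.3 on those of Panc1005, and 35 and 36.1 on their replicate 2 arrays. That rise lay in LCP1, an actin-bundling protein of leukocytes that carcinoma cells can also make, at 6.63 to 7.71 on replicates 1 and 3 and at 13.21 and 14.14 on replicate 2. Of the endothelial, acinar, islet and fibroblast markers 2 of 8, 2 of 10, 4 of 9 and 5 of 10 were measured. PECAM1, an endothelial adhesion molecule, measured 6.27, 10.07 and 5.88 in SU8686 against 5.19, 6.52 and 5.25 in Panc1005. It passed higher in replicates 1 and 3 (fitted difference 0.86, limma, adjusted p = 0.0200). Of those arrays it was detected on replicate 1 of SU8686 alone, so the size of that difference was not measured. No endothelial marker passed there with an array left out, unless that array was replicate 3 of SU8686. CDH5, the endothelial cadherin, was detected on the replicate 2 arrays alone, at 6.67 and 6.84. Summed, both markers gave 10.8 to 11 and 16.7 on replicates 1 and 3 and on replicate 2 of SU8686, and 9.9 to 10 and 13.4 on those of Panc1005. Of the fibroblast markers the collagen genes COL1A1 and COL1A2 passed higher in replicates 1 and 3 (at least 1.46-fold and a difference of 1.24) and COL6A3 lower (-0.39). No fibroblast marker passed lower with any 1 of these 4 arrays left out. The higher calls did not both hold either, unless the array was replicate 3 of SU8686. LUM, lumican, was at least 4.81-fold higher in replicate 2. The fibroblast markers summed to 34.3 to 34.7 in SU8686 and 32 to 32.7 in Panc1005. The acinar trypsinogens PRSS1 and PRSS2, which are close copies, were at least 1.93-fold and 2.36-fold lower in replicate 2 of SU8686, and their sum was 10.2 to 11.1 in SU8686 against 11.2 to 14.2. No islet marker passed, with sums of 26.3 to 28.6 and 25.9 to 28.2. Their part in the differences below was not tested. In bulk RNA, fewer cells of a type and less RNA per cell cannot be told apart.

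Because interferon-stimulated genes recur in what follows, the sequence just before the start of 4 of them is shown, chosen to span genes that differed most and genes whose difference changed between replicate sets. Each run is the 180 bases before the RefSeq start (GRCh38.p14), 5′ to 3′ on the gene's strand, and capitals mark matches to the core of the interferon-stimulated response element on either strand, which is GAAA, any 2 bases and GAAA again (TTTC, any 2 bases and TTTC on the other strand).
IFI27, plus strand, chr14:94110556-94110735: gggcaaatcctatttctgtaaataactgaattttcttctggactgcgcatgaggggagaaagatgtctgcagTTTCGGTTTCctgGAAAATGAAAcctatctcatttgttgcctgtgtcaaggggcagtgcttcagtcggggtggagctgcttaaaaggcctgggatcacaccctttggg
IFI44L, plus strand, chr1:78620268-78620447: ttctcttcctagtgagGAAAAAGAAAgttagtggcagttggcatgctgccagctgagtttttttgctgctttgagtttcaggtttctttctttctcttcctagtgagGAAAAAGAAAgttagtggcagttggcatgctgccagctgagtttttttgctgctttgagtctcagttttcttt
IFITM1, plus strand, chr11:313860-314039: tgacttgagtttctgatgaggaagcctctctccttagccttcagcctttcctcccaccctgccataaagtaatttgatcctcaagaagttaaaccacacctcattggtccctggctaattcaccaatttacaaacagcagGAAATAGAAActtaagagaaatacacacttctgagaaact
EPSTI1, minus strand, chr13:42992242-42992421: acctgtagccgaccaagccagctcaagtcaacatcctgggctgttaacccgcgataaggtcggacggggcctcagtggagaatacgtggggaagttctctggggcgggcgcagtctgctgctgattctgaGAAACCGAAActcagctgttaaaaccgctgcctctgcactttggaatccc

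Over the full 300-base windows of the RefSeq table, 25 of the 40 windows that belong to 31 measured members of the interferon list held the motif, or 62.5%, against 1255 of all 35116 windows, or 3.57%. A match describes letters in the window and is not evidence of binding. IFI27 held 2 matches on opposite strands and IFI44L held 2 inside a repeated stretch, while IFITM1 and EPSTI1 held 1 each.

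Over all 6 arrays 3 genes passed the test at an adjusted p under 0.05 (limma), all higher in SU8686, which is 0.0258% of genes, and 1055 passed an unadjusted p under 0.05. CD14, a co-receptor for bacterial lipopolysaccharide, measured 10.19, 9.85 and 10.14 in SU8686 and 6.92, 7.01 and 7.07 in Panc1005 in replicates 1, 2 and 3. DEFB1, an antimicrobial beta-defensin of epithelia, measured 8.01, 7.80 and 7.93 against 5.25, 5.17 and 5.44. NFE2, a transcription factor known from red cell and platelet precursors, measured 8.57, 8.75 and 8.54 against 5.14, 5.70 and 5.01. In each of these the SU8686 arrays lay far above the Panc1005 arrays, replicate 2 included, and DEFB1 and NFE2 were detected on no Panc1005 array. The differences were 3.06 ± 0.20, 2.63 ± 0.19 and 3.34 ± 0.25 (SE, n = 3 arrays each), each at an adjusted p of 0.0369. For a gene detected on no array of the dimmer line the fold is a lower bound, taken against the lowest level that counted as detected on each array: at least 3.52-fold for DEFB1 and at least 5.74-fold for NFE2. The sizes of the 3 differences moved little when single arrays were left out, but the calls did not hold: 0 genes passed without any 1 of 5 arrays, and 8 passed without replicate 2 of SU8686. Same-numbered arrays of the lines deviated together, at r = 0.69 to 0.76, but replicates 1 and 3 did so equally across numbers, at 0.69. With the replicate number as a block 22 genes passed (0.189%), 21 higher (0.18%) and 1 lower (0.00859%) in SU8686. Besides the 3 above they included S100A8, GBP2, CFB, MMP7, C3, CD74, HLA-DMA, HLA-DPA1, ALDH3B2 and KLHDC8B among the higher genes, and MARCHF4 as the lower one.

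Most genes that differed by at least 1 in each of the 3 same-numbered pairs were higher in SU8686. There were 186 such higher genes (1.6%) and 33 lower genes (0.283%). Without a size limit the counts were near even, with 3250 genes higher (27.9%) and 3080 lower (26.5%) in all 3 pairs. All 3 SU8686 arrays lay above all 3 Panc1005 arrays for 1253 genes (10.8%) and below them for 1084 (9.31%). The higher genes with the largest smallest difference over the pairs included several genes of immune defence. S100A8, a subunit of calprotectin, measured 10.82, 12 and 10.70 in SU8686 and 5.83, 6.53 and 5.73 in Panc1005, where replicate 2 alone was detected. VTCN1, a B7 family protein that restrains T cells, measured 9.15, 11.92 and 8.83 against 4.98, 5.11 and 5.01, at least 7.14-fold higher in replicates 1 and 3 and at least 61.1-fold higher in replicate 2. GBP2, an interferon-induced GTPase, measured 10.79, 12.97 and 10.72 against 6.89, 9.05 and 6.63. In GBP2 both lines were higher in replicate 2 while their difference stayed between 3.90 and 4.09.
TNFSF10, the death ligand TRAIL, measured 8.91, 11.56 and 8.82 in SU8686 and was detected on no Panc1005 array. CFB, complement factor B, measured 12.15, 15.44 and 11.93 against 8.64, 10.81 and 8.62. ALDH3B2, an aldehyde dehydrogenase, measured 7.86, 10.03 and 7.94 and was detected on no Panc1005 array. BCL6, a transcriptional repressor, measured 9.64, 11.17 and 9.47 against 7.07, 7.44 and 6.92. In none of these did the arrays of the lines overlap, but only CD14, DEFB1 and NFE2 passed over 6 arrays without the block (adjusted p = 0.0521 for S100A8 and 0.247 to 0.398 for the others).

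**Figure D1:**
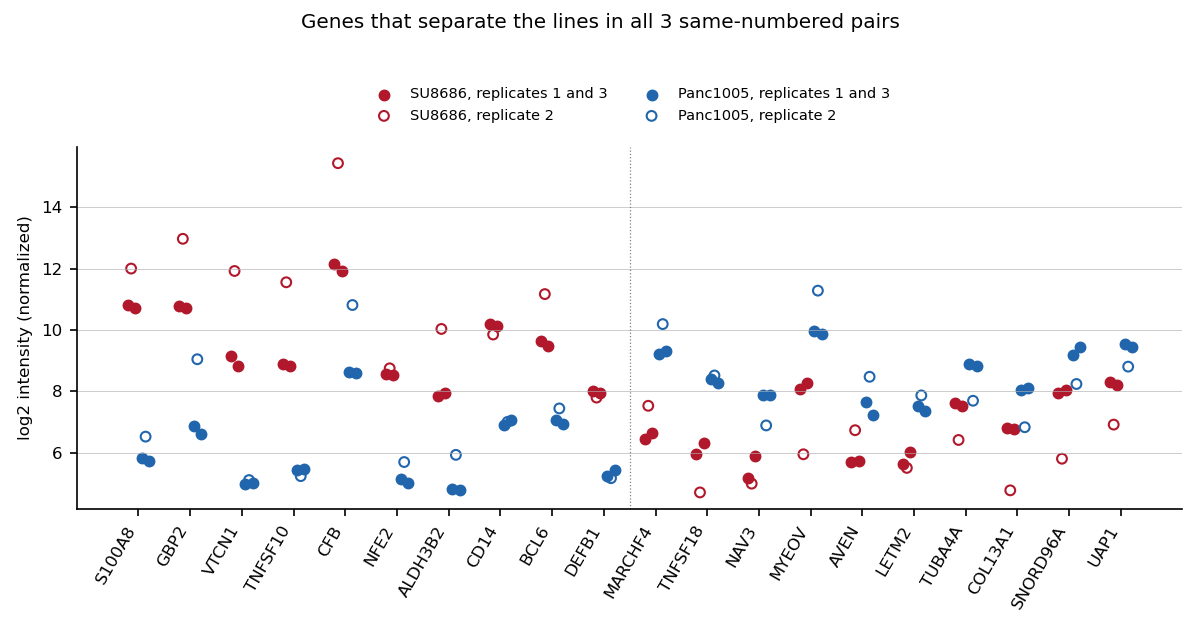
Log2 intensity of the 10 higher and 10 lower genes with the largest smallest difference over the 3 same-numbered pairs, on each of the 6 arrays. Filled points are replicates 1 and 3, open points are replicate 2, and colour gives the line; the SU8686 points of the first 10 genes lie above the Panc1005 points, as the choice of genes requires, and replicate 2 is displaced in both lines for GBP2 and CFB.

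Among genes lower in SU8686 in every pair, MARCHF4, a membrane-bound ubiquitin ligase, measured 6.45, 7.53 and 6.64 in SU8686 against 9.21, 10.19 and 9.30 in Panc1005. TNFSF18, the ligand of the T cell receptor GITR, measured 5.95, 4.71 and 6.33 against 8.39, 8.52 and 8.28. MYEOV, a gene overexpressed in some myelomas and carcinomas, measured 8.08, 5.95 and 8.26 against 9.97, 11.28 and 9.86, and it was not detected on replicate 2 of SU8686. The lines did not overlap in any of these 3, and the spread of SU8686 was widest in MYEOV.
LETM2, a relative of a mitochondrial ion exchanger, was detected on all 3 Panc1005 arrays at 7.53, 7.87 and 7.37 and on no SU8686 array. NAV3, a microtubule-associated neuron navigator, was likewise detected on Panc1005 alone, at 7.90, 6.89 and 7.87. AVEN, an inhibitor of apoptosis, measured 5.71, 6.73 and 5.74 against 7.64, 8.48 and 7.23, and in SU8686 it was detected on replicate 2 alone. SNORD96A, COL13A1, UAP1 and TUBA4A completed the 10, with differences over 6 arrays of -1.70, -1.55, -1.46 and -1.30. They encode a small nucleolar RNA, a membrane collagen, an enzyme of UDP-N-acetylglucosamine synthesis and an alpha tubulin.

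In replicates 1 and 3, with 2 arrays a line, 3112 genes passed (26.7%), of which 1714 were higher (14.7%) and 1398 lower (12%) in SU8686. Leaving out any 1 of the 4 arrays left 940 to 1169 genes. Most differences were small: 433 of the higher and 137 of the lower genes differed by at least 1. Of those 433, 370 had the same sign in replicate 2 and 223 were also at least 1 higher there. Of the 137, 121 had the same sign and 49 were at least 1 lower. The largest of those detected in both replicates of the brighter line was in S100A8, with a measured difference of 4.98 ± 0.10 (SE, n = 2 arrays a line, adjusted p = 0.000805), which is at least 24.4-fold because S100A8 was not detected in Panc1005 there. IFI27, an interferon-induced mitochondrial protein, measured 10.45 and 10.03 in SU8686 and was not detected in Panc1005, where it was at least 17-fold lower (adjusted p = 0.000805). Its 5.94 in replicate 2 of SU8686 was also not detected, so the difference of IFI27 rests on replicates 1 and 3. SERPINA3, an acute-phase protease inhibitor, measured 12.58 and 12.59 against 8.90 and 8.80 (difference 3.74 ± 0.09, adjusted p = 0.000805). FEZ1, an adaptor of kinesin transport, measured 8.73 and 8.60 and was not detected in Panc1005, at least 5.69-fold lower, in these replicates. Among lower genes outside those named above, SFTA1P, a long noncoding RNA, measured 8.95 and 9.12 against 11.28 and 11.04, and was not detected on either replicate 2 array. RIMS2, a synaptic scaffold, and DLC1, a RhoGAP, were not detected on the SU8686 arrays, at least 2.03-fold and 2.16-fold lower. DEFB103A, beta-defensin 3, differed by -1.87 ± 0.13, but it has a near-identical copy that the probe may not separate.

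In replicate 2, with 1 array a line and no test, 2446 genes differed by at least 1 with the brighter array detected (21%), 1303 higher (11.2%) and 1143 lower (9.82%) in SU8686. Of these, 588 and 443 also passed the same way in replicates 1 and 3, and 15 and 55 passed the opposite way. RARRES1, a retinoid-responsive membrane protein, measured 14.89 against 8.27, and PSCA, a surface antigen of pancreatic and prostate tumours, 12.22 against 5.98, not detected, at least 75.2-fold apart. FGFR3, a fibroblast growth factor receptor, measured 11.54 against 5.27, not detected, at least 47.0-fold apart, where replicates 1 and 3 gave a difference of 0.73. In the lower direction THBD, thrombomodulin, was not detected in SU8686 and was at 11.61 in Panc1005, at least 49.0-fold apart. FST, an activin antagonist, measured 6.23 against 12.52, and HBEGF, a ligand of EGFR, 6.95 against 12.91. SPRR2D, a cornified envelope protein, and UPP1, a uridine phosphorylase, differed by -5.93 and -5.55. RARRES1, PSCA, FST and SPRR2D were detected in neither line in replicates 1 and 3, so these genes separated the lines on the replicate 2 arrays alone.

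**Figure D2:**
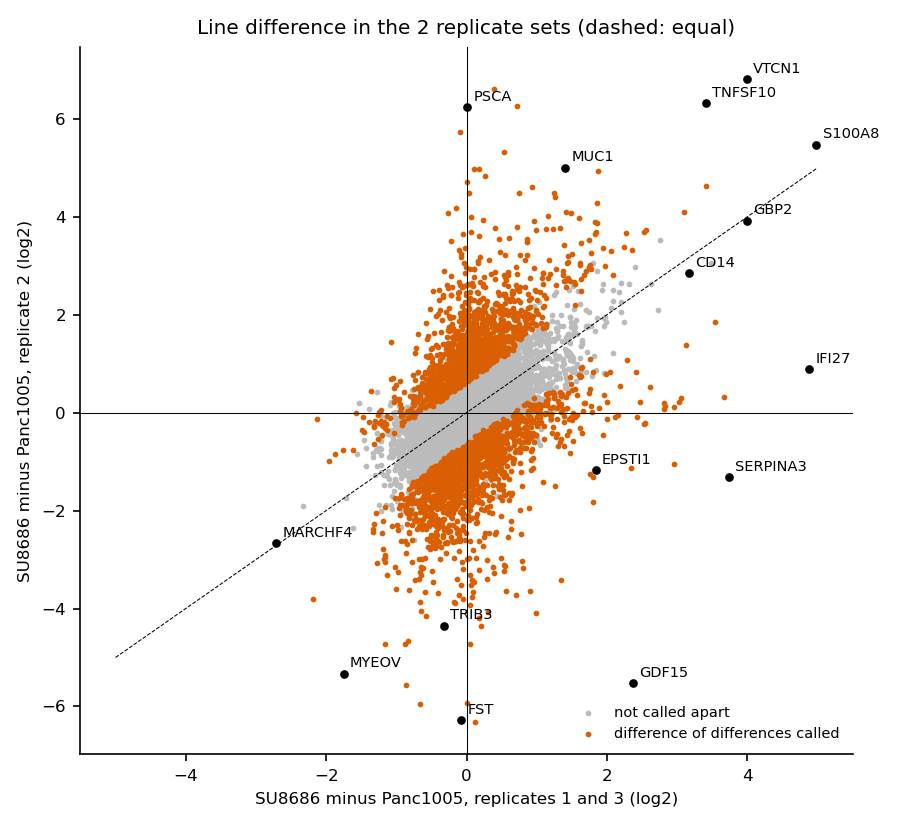
Difference between lines in replicates 1 and 3 (mean of both, horizontal axis) against that in replicate 2 (vertical axis), in log2 units, for 11644 genes. Grey points are genes whose 2 differences were not called apart, coloured points are the 2851 genes called in the test of the difference of differences; VTCN1 and GBP2 lie high in both sets and GDF15 lies in the quadrant of opposite signs.

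The difference between the lines was itself different in replicate 2 for 2851 genes (24.5%; limma, the lone replicate 2 arrays assumed to vary like the others), 1389 more positive (11.9%) and 1462 more negative (12.6%), and 1734 to 1788 with any 1 array of replicates 1 and 3 left out. It had opposite signs in the replicate sets for 1278 of them, and was at least 1 in size both ways for 12. GDF15, a stress-induced cytokine, measured 8.71 and 8.95 against 6.66 and 6.26 in replicates 1 and 3, but 6.94 against 12.47 in replicate 2. SLC2A3, the glucose transporter GLUT3, measured 10.05 and 10 against 8.60 and 8.76, but 6.87 against 10.29. SERPINA3 measured 5.93, not detected, against 7.25 in replicate 2, at least 2.37-fold lower. In these 3 genes SU8686 was higher in replicates 1 and 3 and Panc1005 was higher in replicate 2. MT1M, a metallothionein, turned in the same way, from 1.80 to -1.83. CYTH4, an exchange factor for ARF GTPases, went from 1.80 to at least 1.27-fold lower in SU8686, where it was not detected on replicate 2.
Genes that turned the other way had smaller differences. SLC7A6, an amino acid transporter, went from -1.08 to 1.45 and GPX3, a secreted glutathione peroxidase, from -0.71 to 1.32. E2F8, a repressor of the E2F family, was at least 1.42-fold lower in SU8686 in replicates 1 and 3, but it was not detected on either replicate 2 array, so that its change of sign was not measured above background. SCARNA18, a small Cajal body RNA, went from -0.76 to at least 1.25-fold higher in replicate 2, where Panc1005 was not detected. CHRNA1, a muscle acetylcholine receptor subunit, was detected on 2 of the 6 arrays, replicate 1 of Panc1005 and replicate 2 of SU8686, and was at least 1.48-fold higher in SU8686 in replicate 2. With the replicate block its difference between the sets was no longer called.

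Interferon-stimulated genes were higher in SU8686 as a group. Of 39 measured members of a list of 44, 36 passed higher and none lower in replicates 1 and 3, where 14.7% of all genes passed higher, and 29 were higher in all 3 pairs, as were 27.9% of all genes. From 25 to 30 passed with 1 of the 4 arrays left out. The list's median difference was 1.06 in replicates 1 and 3 and 0.76 in replicate 2, against 0.01 and 0.03 over all genes. Beside GBP2 and IFI27, IFI44L measured 9.87 and 9.80 against 6.07 and 6.53 in replicates 1 and 3 and 8.09 against 6.24 in replicate 2, and it was higher in SU8686 in every pair. OAS2, a sensor of double-stranded RNA, differed by 3.13 in replicates 1 and 3 and was at least 1.74-fold higher in replicate 2. MX1, an antiviral GTPase, differed by 2.01 and 0.23 in the 2 sets. IRF9, a DNA-binding factor of interferon signalling, differed by 1.51 and 1.06. Replicate 2 moved single members both ways: IFITM1, a membrane protein that blocks virus entry, differed by 1.86 in replicates 1 and 3 and was at least 12.7-fold higher in replicate 2, whereas EPSTI1 measured 8.45 and 8.58 against 6.63 and 6.73 but 7.92 against 9.10. The difference of differences passed for 4 members upwards and 14 downwards (11.9% and 12.6% of all genes). The genes of lower or reversed difference in replicate 2 included EPSTI1, IFI16, IRF1, XAF1 and ISG20, and ISG20, an exonuclease, went from 0.65 to -1.64.

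Antigen presentation genes followed the same direction. Of 21 measured of 26, 16 passed higher and 1 lower in replicates 1 and 3 (14.7% and 12% of all genes), or 14 to 15 higher and none lower with an array left out, and the median was 0.89 there and 0.79 in replicate 2. Of the MHC class II genes, HLA-DMA, a peptide loading factor, differed by 2.05, 2.13 and 2.05 in the 3 pairs and CD74, the invariant chain, by 1.83, 1.67 and 1.82. Both genes were higher on replicate 2 of both lines. The lines did not overlap in HLA-DMA, but in CD74 replicate 2 of Panc1005, at 12.44, lay above replicates 1 and 3 of SU8686, at 11.55 and 11.36. Over 6 arrays neither passed (limma, adjusted p = 0.382 and 0.684), and with the replicate block both did (adjusted p = 0.0481 and 0.0492). HLA-DPA1, not detected on replicates 1 and 3 of Panc1005, was at least 1.57-fold higher there and differed by 1.85 in replicate 2. HLA-DMB was at least 3.46-fold higher in replicates 1 and 3 and differed by 2.51 in replicate 2, and HLA-DRA differed by 1.48 and 1.95. Of class I genes, HLA-B differed by 0.92 and 1.16 and HLA-E by 1.16 and 1.27. The class I genes are close copies of each other, which a probe may not separate. The immunoproteasome subunits PSMB8 and PSMB9 and the peptide transporter TAP1 passed higher in replicates 1 and 3 (0.73, 0.86 and 0.81) but differed by -0.18, -0.47 and -0.10 in replicate 2. TAP2, the partner of TAP1, was the member that passed lower, by -0.45 ± 0.11, and it did not pass with the replicate block (adjusted p = 0.0518).

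The innate defence list leaned higher in SU8686, but it was chosen in part from earlier results of these arrays, so no direction of a group is read. Of 29 measured of 38, 20 passed higher and 1 lower in replicates 1 and 3 (14.7% and 12% of all genes), with medians of 1.24 in replicates 1 and 3 and 1.37 in replicate 2. The list holds CD14, DEFB1, NFE2, S100A8 and VTCN1 because of earlier results of these arrays, so it is not independent evidence of its direction. Detected members numbered 20 to 26 on the SU8686 arrays and 12 to 20 on those of Panc1005, so that some were measured only because SU8686 was bright enough. Among the others, S100A9, the partner of S100A8 in calprotectin, differed by 2.24 and 3.38. Complement genes split by replicate: C3 was at least 3.61-fold higher in replicates 1 and 3 and differed by 1.85 in replicate 2, and CFB differed by 3.42 and 4.62. C1R and C1S are the proteases that start the classical pathway. C1R was at least 2.5-fold higher in replicates 1 and 3 and detected on neither replicate 2 array, and C1S differed by 1.75 and 0.39. SAA1 and SAA4, acute-phase apolipoproteins with near copies, differed by 1.57 and 2.47 and then by 0.36 and 0.21. NLRP3, the inflammasome sensor, was the member that passed lower, at -1.16, and was at least 5.25-fold lower in replicate 2.

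**Figure D3:**
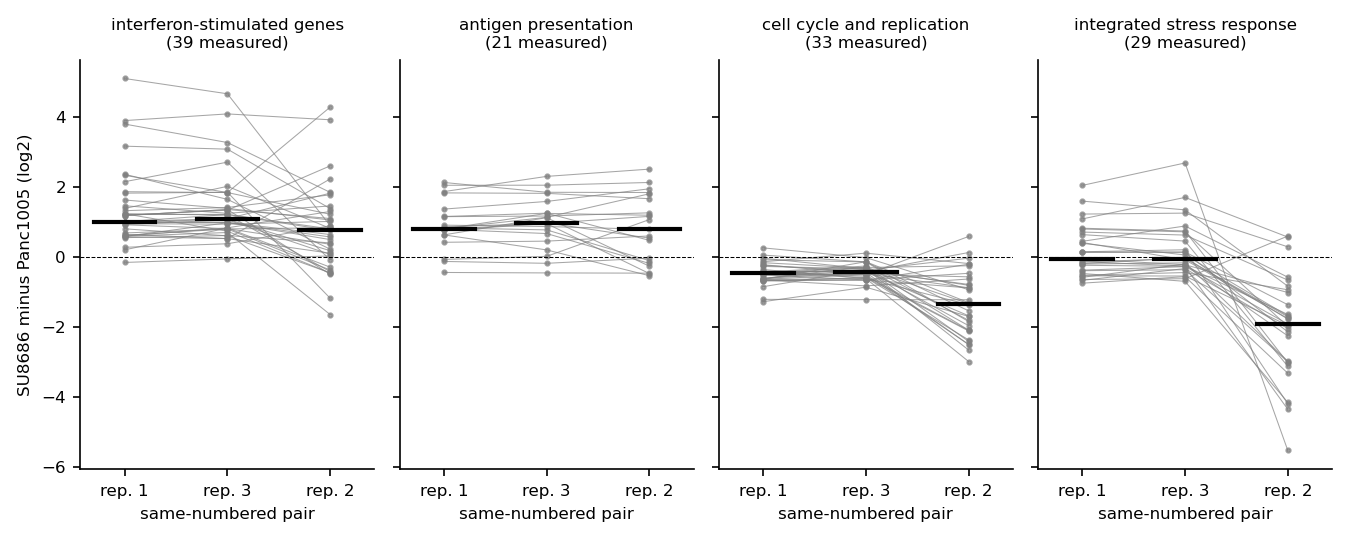
Difference between lines in each same-numbered pair of arrays for every measured member of 4 gene lists, in log2 units; each grey line joins 1 gene over the 3 pairs and the black bar marks the median. Interferon and antigen presentation genes lie mostly above 0 in all 3 pairs, cell cycle genes mostly below 0, and integrated stress response genes spread around 0 in replicates 1 and 3 and lie mostly below 0 in replicate 2.

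Genes of the cell cycle were lower in SU8686. None of 33 measured of 36 passed higher and 20 passed lower in replicates 1 and 3 (12% of all genes passed lower), 28 were lower in all 3 pairs (26.5% of all genes), and the median was -0.48 there and -1.33 in replicate 2. The count of calls rests on all 4 arrays: 2 to 4 members passed lower with any 1 of them left out, while the median stayed between -0.51 and -0.41. CDC6 and CDC25A, which license and trigger S phase, differed by -1.21 and -1.07 in replicates 1 and 3 and were at least 1.62-fold and 2.66-fold lower in replicate 2. The mitotic genes BUB1, CCNA2 and CDC20 differed by -0.63, -0.64 and -0.51 and by -2.98, -2.37 and -2.50. The MCM helicase subunits MCM2, MCM3, MCM4, MCM5, MCM6 and MCM7 passed lower in replicates 1 and 3, between -0.48 and -0.74 (MCM2 not with the replicate block, adjusted p = 0.058), but ranged from -0.81 to 0.59 in replicate 2. The difference between sets was thus larger in mitotic than in replication genes named here, a contrast chosen after the values were seen.

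The integrated stress response, by which amino acid shortage or misfolded protein raises ATF4 and its targets, showed no common direction in replicates 1 and 3. There 9 of 29 measured members of 30 passed higher and 7 lower (14.7% and 12% of all genes; median -0.09), or 6 to 7 higher and 0 to 1 lower with an array left out. In replicate 2, 22 members were at least 1 lower in SU8686 and none at least 1 higher (9.82% and 11.2% of all genes). The median there was -1.91. The difference of differences passed for 26 downwards and 1 upwards (12.6% and 11.9% of all genes). Most of the gap lay in the Panc1005 array: the summed log2 level of the list was 323.5 on replicate 2 of Panc1005 and 267.1 to 267.5 on its other arrays. In SU8686 the sum was 265.1 on replicate 2 and 272.3 to 273.0 on the others. TRIB3, an ATF4-induced pseudokinase, differed by -0.32 and -4.35, ASNS, asparagine synthetase, by -0.58 and -4.15 and DDIT3, the transcription factor CHOP, by 0.79 and -3.02. Of the list ATF4 itself differed by -0.14 and -1.01. Metallothioneins, which bind zinc and copper, also leaned lower in SU8686 in replicate 2, but with a fall in the SU8686 array. Of 8 measured in a list of 12, 3 passed higher and 1 lower in replicates 1 and 3 (14.7% and 12% of all genes). Their median there was 0.16, or 0.12 to 0.27 with an array left out. In replicate 2, 5 were at least 1 lower in SU8686 and 1 at least 1 higher (9.82% and 11.2% of all genes). Their summed log2 level was 74.2 on replicate 2 of SU8686 against 84.8 to 84.9 on its other arrays. In Panc1005 it was 83.9 against 80.9 to 81.5. MT2A differed by 0.14 and -2.26 and MT1X by 0.78 and -2.47.

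**Figure D4:**
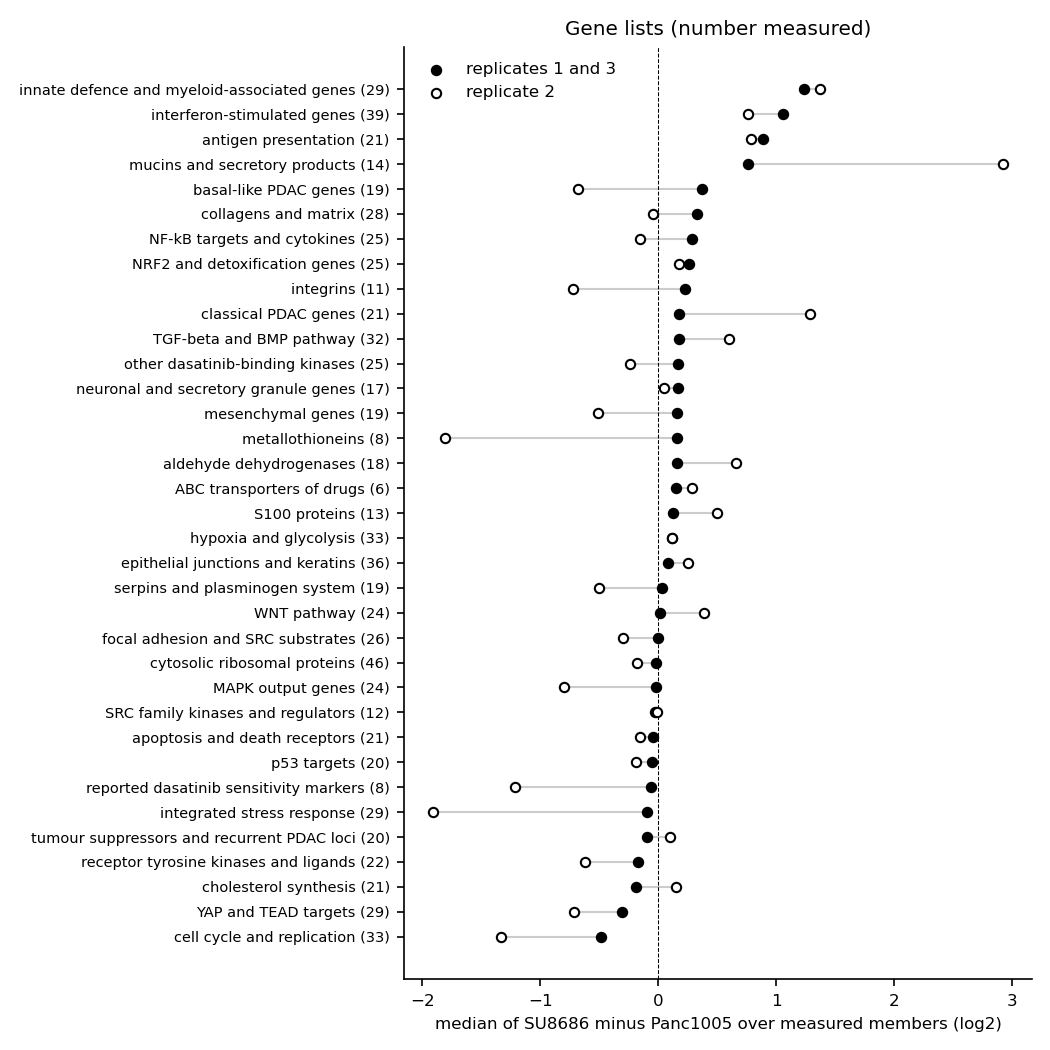
Median difference between lines of each of 35 gene lists, in log2 units, in replicates 1 and 3 (filled) and in replicate 2 (open); the dashed line marks 0. Interferon, innate defence and antigen presentation lists have positive medians in both sets, the cell cycle list has a negative one in both, and the metallothionein and integrated stress response lists lie further down in replicate 2. The innate defence list holds genes chosen from earlier results of these arrays, so its median is not independent evidence of a direction. The high replicate 2 medians of the mucin and classical lists include members detected on replicate 2 of SU8686 and on few other arrays, so neither median is read.

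Among secretory and classical-subtype genes detected on all 6 arrays, MUC1, WFDC2 and SLC40A1 were higher in SU8686 in every pair and MUC4 was not. Of 26 mucins and secretory products 14 were measured, all 14 detected on replicate 2 of SU8686 but 6 on each of its other arrays, 9 on replicate 2 of Panc1005 and 5 on each of its other arrays. Because some were measured only through the array where they were high, no count or median of this list is read. MUC1, a membrane mucin, measured 13.99, 12.52 and 14.07 in SU8686 against 12.67, 7.51 and 12.58 in Panc1005, so that the wider gap in replicate 2 lay in the lower Panc1005 array. MUC16, the CA125 antigen, was at least 3.15-fold higher in replicates 1 and 3 and differed by 3.31 in replicate 2, and WFDC2, a secreted whey acidic protein, differed by 2.06 and 3.31. MUC4 turned, from 0.78 to -1.21. The same holds for classical pancreatic cancer genes, 21 measured of 39, with 19 detected on replicate 2 of SU8686, 12 on that of Panc1005 and 6 to 7 on each other array. MUC13, which is in both lists, was detected on replicate 2 of SU8686 alone and was at least 5.83-fold higher there. CEACAM1, an adhesion molecule, was at least 4.29-fold and 9.24-fold higher in the 2 sets, and SLC40A1, the iron exporter ferroportin, differed by 1.75 and 3.52. TSPAN8, a tetraspanin, was detected in replicate 2 alone, where it differed by 4.97.

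Targets of the YAP and TEAD regulators, which respond to cell shape and adhesion, leaned lower in SU8686. Of 29 measured of 30, 2 passed higher and 11 lower (14.7% and 12% of all genes), or none higher and 6 to 9 lower with an array left out, with medians of -0.31 and -0.71. CCN1 and CCN2, matricellular proteins, differed by -1.06 and -1.62 in replicates 1 and 3 and by -2.30 and -0.77 in replicate 2. The receptor kinase AXL differed by -0.49 and -3.24 and tissue factor, F3, by -0.97 and -3.26. In the TGF-beta and BMP list 9 of 32 measured members of 40 passed higher and 1 lower (14.7% and 12% of all genes), or 5 to 6 and 0 to 1 with an array left out. The BMP targets ID1, ID2 and SMAD6 differed by 1.39, 1.26 and 1.65, and the receptor BMPR2 by 1.76. In replicate 2 ID1 and ID2 differed by 3.42 and 4.41 and SMAD6 and BMPR2 by 1.47 and 1.09. NOG, a BMP antagonist, was the member that passed lower; it was detected on no SU8686 array and was at least 1.14-fold lower in replicates 1 and 3. TGFBR2 and SMAD4 differed by 0.10 and 0.09, neither of which passed (adjusted p = 0.490 and 0.538).

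The targets of dasatinib passed about as often as other genes. Of 12 measured SRC family kinases and regulators, out of 15, 2 passed higher and 1 lower in replicates 1 and 3, where 26.7% of all genes passed either way, with a median of -0.03. In replicate 2, 3 of the 12 were at least 1 lower in SU8686 (9.82% of all genes) and none higher, among them FYN (-1.35) and LCK, which was at least 1.52-fold lower. SRC measured 9.75, 11.13 and 9.83 in SU8686 against 9.33, 10.88 and 9.37 in Panc1005, a difference of 0.44 ± 0.09 in replicates 1 and 3 (adjusted p = 0.0283), which did not pass with the replicate block (adjusted p = 0.0528) or with any 1 array left out. None of the 12 passed with an array left out. LYN differed by 0.31 ± 0.09, YES1 by -0.21 ± 0.13 and FYN by -0.14 ± 0.24, none of which passed (adjusted p = 0.0647, 0.292 and 0.699). ABL1 differed by 0.17 ± 0.11 (adjusted p = 0.316). For SRC both lines were higher in replicate 2 than in replicates 1 and 3, by more than the lines differed.
Of 25 measured other kinases that bind dasatinib, out of 37, 4 passed higher and 3 lower, again near the 26.7% of all genes, or 2 higher and 2 to 3 lower with an array left out. DDR1 measured 11.16, 12.79 and 11.09 against 10.16, 11.08 and 10.24 and was higher in SU8686 in every pair (0.93 ± 0.10, adjusted p = 0.00589). EPHA2 measured 8.28, 8.27 and 8.15 against 9.18, 10.03 and 9.03 and was lower in every pair (-0.89 ± 0.11, adjusted p = 0.00851). EPHA2 was also the 1 of 8 reported markers of dasatinib sensitivity that passed. In replicate 2, 5 of these 8 were at least 1 lower in SU8686 and 1 at least 1 higher (9.82% and 11.2% of all genes). The lower ones included the caveolar proteins CAV1 (-2.63) and CAVIN1 (-2.39), which differed by -0.20 and -0.32 in replicates 1 and 3.

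**Figure D5:**
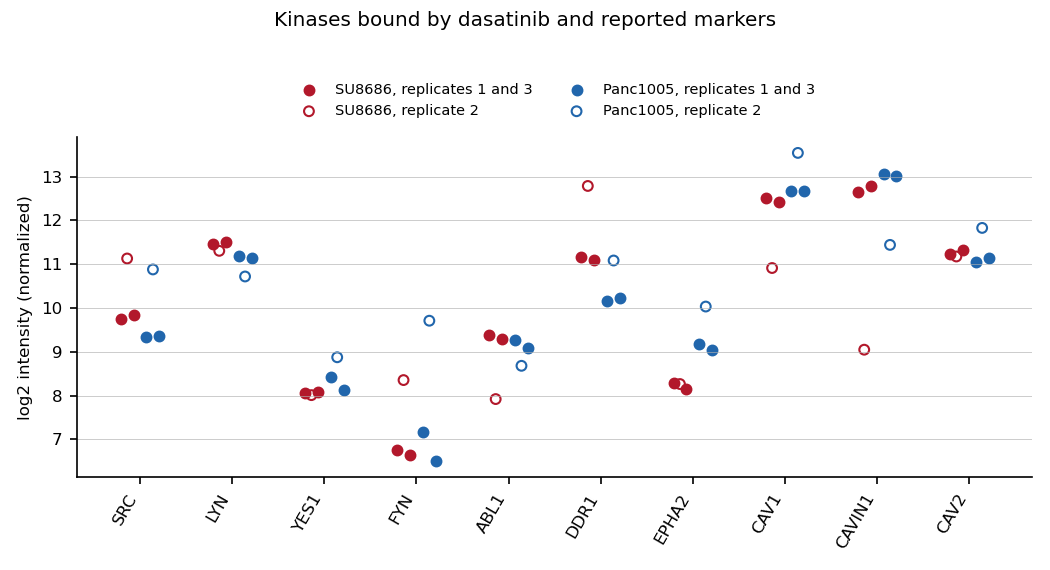
Log2 intensity on each of the 6 arrays of kinases that dasatinib binds and of 3 reported sensitivity markers. Filled points are replicates 1 and 3, open points replicate 2, and colour gives the line; DDR1 and EPHA2 separate the lines in every pair, in opposite directions, and CAV1 does so by more than 1 in replicate 2 alone.

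The counts of other lists in replicates 1 and 3 stand beside 14.7% of all genes passing higher and 12% lower. Cytosolic ribosomal proteins, 46 measured of 51, had 2 higher and 1 lower, with a median of -0.02. More members passed higher than lower among NRF2 and detoxification genes (10 and 1 of 25), collagens and matrix genes (11 and 3 of 28), NF-kB targets and cytokines (10 and 2 of 25), basal-like genes (8 and 2 of 19) and hypoxia and glycolysis genes (9 and 2 of 33). With an array left out the higher counts of these 5 lists fell to 4 to 6, 3 to 6, 6 to 7, 5 to 6 and 5 to 6. MAPK output genes had 2 higher and 4 lower of 24, or 2 to 3 each way with an array left out, and epithelial junction and keratin genes had 6 and 5 of 36, or 1 to 3 each way. KLHDC8B, a kelch-domain protein, measured 8.25, 7.42 and 8.06 in SU8686 and was detected on no Panc1005 array, at least 3.51-fold lower. VIM, the mesenchymal filament protein, differed by 0.16 in replicates 1 and 3 and by -1.83 in replicate 2, and MTAP, the neighbour of CDKN2A, was not detected on either replicate 2 array and was lower by -0.40 ± 0.10 in the others (adjusted p = 0.0416, and 0.0705 with the replicate block).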

How the data were processed

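RNA of 6 lines was measured on 18 arrays, and the 6 arrays of SU8686 and Panc1005 were compared. The authors deposited, per the file headers, a linear intensity and a detection p-value for 48107 probes per array; neither had been normalized, and for the scanner software nothing is given in the sources used here. Log2 values that the authors deposited for 47323 probes, of unstated normalization, served as an alternative, and their values on this slide shared a median of 6.99. The median intensity of the 6 arrays was 115.4 to 134.6, and 31.0% to 33.7% of probes were detected at p under 0.01. The number of arrays limits the precision.

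Intensities were background corrected and quantile normalized over 18 arrays with neqc (limma 3.58.1, R 4.3.3; offset 16). Of the 47323 probes 30113 had 1 gene symbol, 8 had several and 17202 had none, and 30074 matched a current gene. The detected probe of highest mean over the 6 arrays stood for a gene. The 11644 genes detected on at least 1 of 6 arrays were tested with lmFit and eBayes, with Benjamini-Hochberg adjustment at 0.05. Replicates 1 and 3 were fitted alone, replicate 2 was described without a test, and the difference of the differences was fitted over 4 cell means. Where the dimmer line was detected on no array, the fold was taken against the higher, per array, of its own value and the lowest normalized value of a detected probe. The scripts were tested on simulated data.

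Deviations from the line means of same-numbered arrays correlated at 0.69, 0.76 and 0.69 for replicates 1, 2 and 3. Replicates 1 and 3 correlated as highly across numbers, at 0.69, so these values do not show that their numbers are pairs. Same-numbered arrays were subtracted to give pair differences. The main tests did not use the pairing, which entered through the replicate block as an alternative.

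Genes were named by rule: calls over 6 arrays, the 10 largest each way in replicates 1 and 3, the 5 largest each way in replicate 2, the 10 each way with the largest smallest pair difference, the 5 each way that turned, the 2 largest of each list and a set given by name. Other list members were named after their values were seen. The members, lists and names were chosen with earlier results of these data known. Alternatives covered the normalization, background, offset, filters, probes, size limit, empirical Bayes setting, replicate block, arrays in the fit and arrays left out.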

Additional observations from a re-analysis of the deposited data

Results flagged for a closer look

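The line difference of replicate 2 was tested against that of replicates 1 and 3, and 2851 genes were called different. Among genes named in the report, those whose difference had opposite signs of at least 0.5 in the sets were taken up here, with the value of replicate 2 minus that of replicates 1 and 3. Shifts towards Panc1005 were largest for GDF15, at -7.90, SERPINA3, at -5.05, and SLC2A3, at -4.76. They were also seen for DDIT3 (-3.81), MT1M (-3.62), MT1X (-3.25), CYTH4 (-3.11), EPSTI1 (-3.02), ISG20 (-2.29) and MUC4 (-1.98). Shifts towards SU8686 were smaller: 2.53 for SLC7A6, 2.03 for GPX3, 1.95 for CHRNA1, 1.76 for E2F8 and 1.52 for SCARNA18. In SERPINA3, CYTH4, CHRNA1, E2F8 and SCARNA18 at least 1 replicate 2 array was not above background, so that their shifts are fitted values and not measured sizes. The call of CHRNA1 was lost with the replicate block. Each shift takes a single array per line as replicate 2, assumed to vary like the others, and its cause was not tested.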

How the results depend on the processing

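Over all 6 arrays the 3 calls became 1 with no background correction, 1 on the authors' log2 values, 1 among genes detected on all 6 arrays and 0 with a mean trend and robust empirical Bayes (lowest adjusted p = 0.0546; 1045 genes at an unadjusted p under 0.05), 22 with the replicate block and 68 with 18 arrays in the fit, of which 56 were higher. Leaving out 1 array, or both arrays of a number, gave 0 to 3112 genes, the latter without replicate 2. In replicates 1 and 3 the 3112 calls became 570 when a difference of at least 1 was also required, and 940 to 1169 with an array left out; with the replicate block they were 2419, of which 2292 were shared. In replicate 2 the 2446 genes became 1566 with no background correction, 1516 on the authors' log2 values, 1587 among genes detected on all 6 arrays and 549 at a difference of at least 2. The difference of differences gave 1809 with a difference of at least 1 and 1734 to 1788 with an array left out, and 2200 with the replicate block. The other settings kept each count within 1.5 times. The shares of higher and lower calls in replicates 1 and 3 moved from 55.1% higher to at most 76.0% with the size limit and 67.8% with an array left out.

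Not every gene named here was followed under the alternatives, and CDH5, PECAM1 and KRT18 were among those left out. Of the genes followed, 4 changed sign, each between values near 0 and with 1 array left out. In replicates 1 and 3 CDH2 ranged from -0.13 to 0.02, FST from -0.20 to 0.05, FYN from -0.48 to 0.20 and TSPAN8 from -0.01 to 0.35. CD14, DEFB1 and NFE2 kept their direction under every alternative run. In replicates 1 and 3, 82 gene values lost their call with an array left out. The 436 values examined include genes with no call to lose, such as FYN and ABL1, so 436 is not the base of a loss rate. Among the lost calls were those of SRC, MTAP, TAP2, ASNS, AXL, BUB1, CDC20 and ISG20 for each of the 4 arrays. Values near the detection limit have only a bound, and differences of replicate 2 rest on 1 array a line.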

Other observations

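Small nucleolar and small Cajal body RNA genes were lower in SU8686 in replicates 1 and 3, a group singled out after its values were seen and therefore given without a test of the group. Of 111 measured, 53 passed lower and 4 higher (12% and 14.7% of all genes), with a median difference of -0.67, and -0.22 in replicate 2. In all 3 pairs 63 were lower and 7 higher (26.5% and 27.9% of all genes). Many lie inside introns of host genes.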
